A study of Mus musculus with 7 samples.

Results

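The genes described here carry the transforming growth factor-β (TGF-β) signal in the heart: the ligand genes Tgfb1, Tgfb2 and Tgfb3, the receptor genes Tgfbr1 and Tgfbr2, the signal transducers Smad2, Smad3 and Smad7, and the matrix-associated CCN genes Ccn1 and Ccn2. They were taken by name, and were chosen with earlier results of these data known. Every probe set that the platform annotation gives to exactly 1 of these symbols was used. All 10 genes of the 12393 with such a probe set were found, on 18 probe sets of the 22626 in the table. Whole-heart RNA was hybridised to Affymetrix arrays, 1 per sample, in 2 groups: 4 wild-type samples (WT) and 3 labelled KLF15-null. Both groups share the strain C57/BL6, an age of 3 to 4 months, the label male and a fast of 18 h. Klf15 codes for a zinc-finger transcription factor of heart, muscle and liver, and the labels do not say which part of the gene is missing in the KLF15-null mice, or how. The labels also do not say whether the arrays come from separate animals, so p-values measure the spread between these samples. The question set by the design is which transcripts differ between KLF15-null and WT hearts after the fast. No fed hearts were analysed here.

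TGF-β ligands are secreted in a latent complex with binding proteins of the matrix and act only after release. The free ligand brings together the type II receptor (Tgfbr2) and the type I receptor (Tgfbr1), which phosphorylates SMAD2 and SMAD3; these enter the nucleus with SMAD4, and SMAD7 is the inhibitor that the pathway induces against itself. Ccn2, long known as connective tissue growth factor, and its relative Ccn1 code for secreted proteins of the matrix and are used as readouts of TGF-β and of YAP/TEAD signalling, and in the heart the pathway is known for its part in fibroblast activation and scarring.

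Klf15, the targeted gene, had a log2 signal of at least 8.68 on every WT array and of at most 6.52 on every KLF15-null array, a difference of -2.54 (all differences are KLF15-null minus WT on the log2 scale; exact two-sided permutation p = 0.0286, the smallest that 35 splits of 7 arrays allow). Array medians were 6.31 to 6.33 in WT and 6.22 to 6.23 in KLF15-null hearts, without overlap. Near the bright end of the arrays the order was the opposite, with KLF15-null above WT. Pearson's r was 0.995 to 0.997 between WT arrays and 0.986 to 0.993 between KLF15-null arrays. Between arrays of different groups it was lower, 0.942 to 0.964. The groups thus differed over the whole array, and a difference in handling that follows genotype was not tested. No pair of arrays had more than 9.02% identical values, so none was a copy of another. The values went against the sex label on every array. The brightest probe set of Xist, the RNA of the inactive X chromosome, lay between the 82.2th and the 93.9th percentile of each array, and 8 probe sets specific to Y-linked genes lay at or below the 29.4th. This holds for both groups, which are therefore named here by genotype only.

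The 3 ligand genes did not move together. Tgfb2 rose in KLF15-null hearts while Tgfb1 and Tgfb3 fell. The groups did not overlap for any of the 3, but they did not on 53% of all 13576 tested probe sets either. Both receptor genes rose on their brightest probe set, by 1.58-fold for Tgfbr1 and 1.84-fold for Tgfbr2. Another tested probe set of Tgfbr2 gave no difference past the threshold. The receptor-activated Smad2 and the inhibitory Smad7 were not past the threshold, and Smad3 was too dim to be tested. Ccn2 rose 3.11-fold on its only probe set, and Ccn1 rose 2.16-fold on one probe set while another gave no difference past the threshold.

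A probe set was tested if its mean over the 7 arrays reached the 40th percentile of all probe sets, log2 5.74, and called if limma's adjusted p was under 0.05. Of the 18 probe sets 12 were tested, which left Smad3 without a tested one. Of these 12, 6 were higher in KLF15-null hearts, where 26.8% of all 13576 tested probe sets were higher, and 2 were lower, where 23.8% were lower. The other 4 were not past the threshold. Among all tested probe sets, the numbers were 3637 higher and 3235 lower, or 4473 and 2593 if the arrays are first centred on their medians. The groups did not overlap on 9 of the 12, KLF15-null lying above WT on 7 and below it on 2. Among all tested probe sets the groups did not overlap on 53%, with KLF15-null above on 27.6% and below on 25.4%. Of the 9 member probe sets without overlap, 1, that of Smad7, was not past the threshold. The median difference of the 12 was 0.46 and that of all tested probe sets 0.00. One of the 12, a Tgfb2 probe set, was tested only because it is bright in KLF15-null hearts, so these counts describe the tested probe sets and are not a measure of all 18. With every probe set of the table tested, 7 of the 18 were higher and 2 lower, against 18.5% and 16.9% of all 22626.

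**Figure D1:**
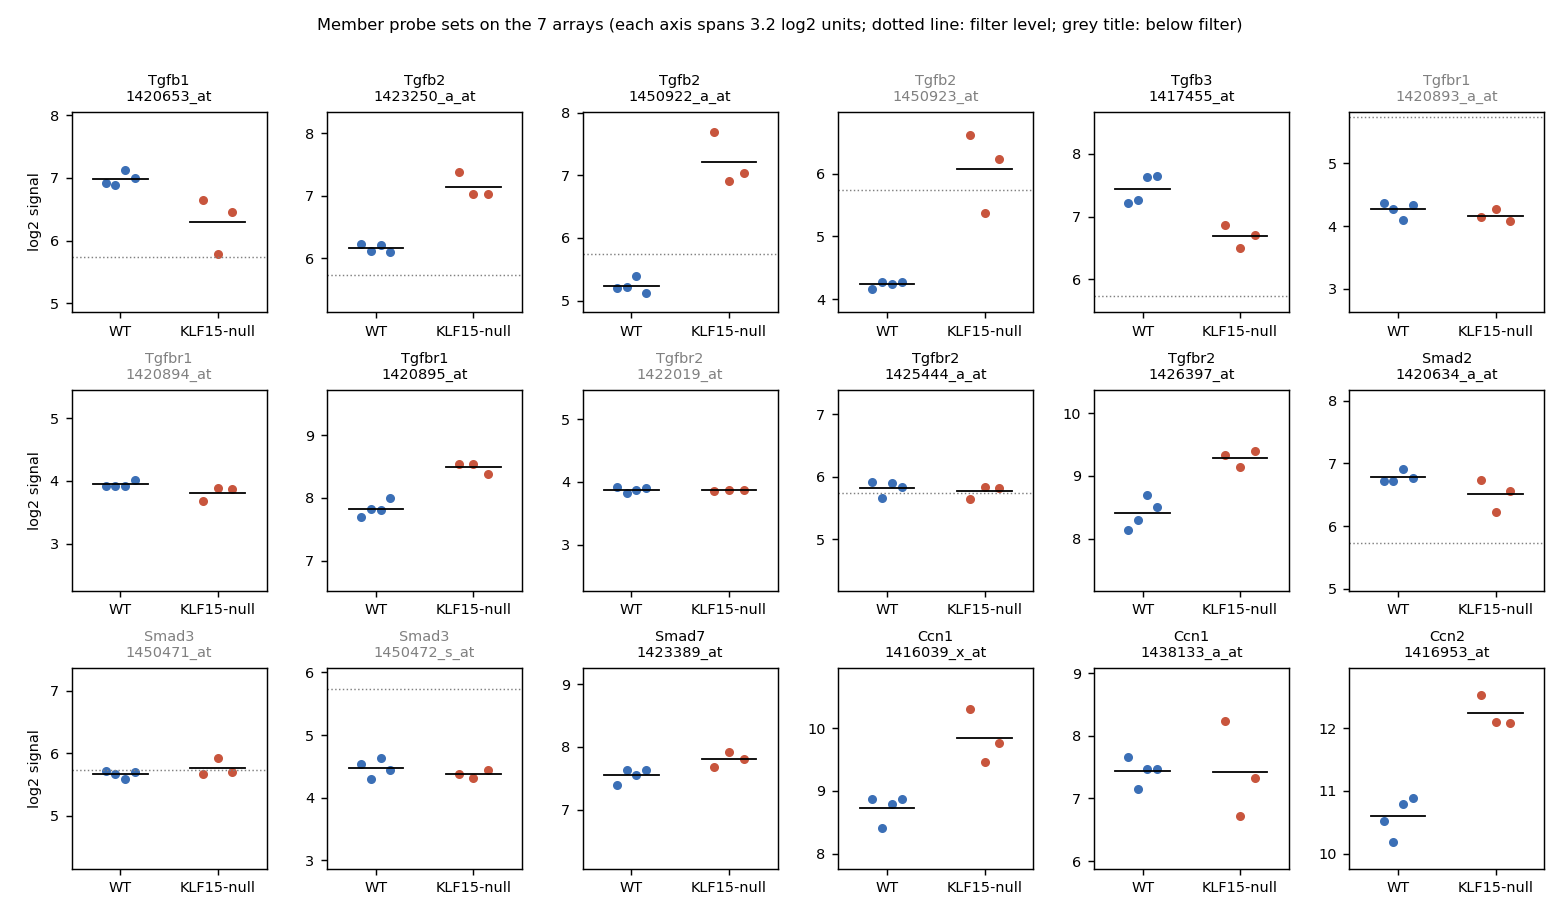
Log2 signal of each of the 18 probe sets on the 4 WT (blue) and 3 KLF15-null (red) arrays, with the group mean as a black line and the filter level as a dotted line where it falls within the axis. Every axis spans the same number of log2 units, so the step of Ccn2 from a mean of 10.60 to 12.24 and that of Tgfb1 from 6.98 to 6.30 can be compared by eye, while the mean over all 7 arrays lies below the filter level for the probe sets with grey titles.

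Tgfb1 codes for the ligand with the widest role in fibrosis and immune control. Its only probe set read 6.92, 6.89, 7.12 and 7.01 on the WT arrays and 6.65, 5.79 and 6.46 on the KLF15-null arrays. All 3 KLF15-null values lay below all 4 WT values, and the second KLF15-null array was the lowest by a wide margin. The difference was -0.68 (SE 0.18, limma adjusted p = 0.0101), a level of 0.623 times that of WT with a 95% confidence interval of 0.472 to 0.823. Without the second KLF15-null array it was -0.43, still past the threshold, so the size of the fall, though not its call, rests in part on 1 array. Platelets, macrophages and endothelial cells are known sources of this ligand; the values of their markers are given further on, and their part in the fall of Tgfb1 was not tested.

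Tgfb2, the isoform needed in the embryo for the valves and septa of the heart, has 3 probe sets. The brightest over the 7 arrays read 6.23, 6.12, 6.21 and 6.10 in WT and 7.38, 7.02 and 7.03 in KLF15-null hearts. It rose 1.97-fold (difference 0.98, SE 0.10, limma adjusted p = 5.47e-05). A second probe set stood at 5.20, 5.22, 5.39 and 5.13 in WT, all under the filter level, and at 7.70, 6.91 and 7.04 in KLF15-null hearts, and differed by 1.98 (SE 0.17, limma adjusted p = 1.61e-05). The third, not tested under the filter, read 4.17 to 4.28 on the WT arrays and 6.61, 5.37 and 6.24 on the KLF15-null arrays. Tested without the filter it differed by 1.84 (SE 0.23, limma adjusted p = 0.000228). On each of the 3 the KLF15-null arrays all lay above the WT arrays, and the first KLF15-null array was the highest. Since the table has no detection calls, the WT levels of the dimmer 2 may be background, and their folds of 3.95 and 3.57 are then lower limits. Both tested probe sets called the gene higher. The second was tested only because it is bright in KLF15-null hearts, so its call adds no separate support to that of the brightest.

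Tgfb3, the third isoform, read 7.22, 7.26, 7.63 and 7.64 in WT and 6.87, 6.50 and 6.72 in KLF15-null hearts on its only probe set. It fell to 0.597 times the WT level (95% confidence interval 0.481 to 0.743; difference -0.74, SE 0.14, limma adjusted p = 0.00163). The WT arrays fell into a lower and a higher pair, and the highest KLF15-null array still lay below the lower pair.

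The split among the ligands can also be read within each array, as the difference between 2 probe sets, a measure that array scaling by a constant does not move. These pairs were chosen after the values had been seen, so the gaps are given as a description, with no test. Tgfb2 minus Tgfb1 was -0.91 to -0.69 on the WT arrays and 0.57 to 1.23 on the KLF15-null arrays. Because 2 probe sets differ in how brightly they bind, the sign of such a gap is not a ratio of transcripts, and only its change between genotypes, here 1.66, can be read. The gap between Tgfb1 and Tgfb3 changed by 0.06, with the groups overlapping, which does not show that these genes fell equally.

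The windows of 250 bases before the annotated starts of Tgfb1 and Tgfb2 are shown because these ligand genes moved in opposite directions; they come from RefSeq's annotation of GRCm38.p6 and are written 5′ to 3′ on the strand of the gene. Capitals mark CACCC, the core element of Krüppel-like factors, CAGAC, the short element bound by SMADs, and GGAATG, the element bound by TEAD factors. Each was searched on both strands, and a match on the other strand appears as its reverse complement. No base lay in more than 1 such motif in these windows. The Tgfb1 window is chr7:25686752-25687001 on the plus strand and lies directly upstream of the gene. The Tgfb2 window is chr1:186705990-186706239 on the minus strand; it precedes 1 annotated start and lies inside the span of the gene, which reaches further upstream.
Tgfb1: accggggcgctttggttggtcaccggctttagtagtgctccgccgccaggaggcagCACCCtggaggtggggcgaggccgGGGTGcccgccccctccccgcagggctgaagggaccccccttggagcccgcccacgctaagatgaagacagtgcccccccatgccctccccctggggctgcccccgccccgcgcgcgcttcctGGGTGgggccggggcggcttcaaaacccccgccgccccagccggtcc
Tgfb2: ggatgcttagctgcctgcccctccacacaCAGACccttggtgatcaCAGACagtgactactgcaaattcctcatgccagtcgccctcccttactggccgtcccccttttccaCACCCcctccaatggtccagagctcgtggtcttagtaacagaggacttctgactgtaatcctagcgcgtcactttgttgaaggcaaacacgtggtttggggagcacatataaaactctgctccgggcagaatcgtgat
The Tgfb1 window holds 3 matches to CACCC and none to CAGAC, and the Tgfb2 window holds 1 match to CACCC and 2 to CAGAC. Of all 32851 windows of this length 52.0% hold CACCC, 42.2% CAGAC and 12.6% GGAATG, so a match to either of the first 2 is common. A match describes the letters and is not a binding site.

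Tgfbr1 codes for the type I receptor, the kinase that phosphorylates SMAD2 and SMAD3. Its brightest probe set read 7.70, 7.83, 7.80 and 7.99 in WT and 8.55, 8.54 and 8.38 in KLF15-null hearts, without overlap. It rose 1.58-fold (95% confidence interval 1.34 to 1.86; difference 0.66, SE 0.10, limma adjusted p = 0.000565). The other 2 probe sets of Tgfbr1, with means of 3.81 to 4.27 in the 2 groups, lay at the 9.97th and the 4.02th percentile of the table, below the filter level. Without the filter they differed by -0.11 and -0.13, neither past the threshold (limma adjusted p = 0.305 and 0.124).

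Tgfbr2, the type II receptor that binds the ligand first, had the same layout of 1 bright and 2 dim probe sets. The bright one read 8.14, 8.30, 8.70 and 8.51 in WT and 9.34, 9.14 and 9.40 in KLF15-null hearts, and rose 1.84-fold (95% confidence interval 1.47 to 2.31; difference 0.88, SE 0.15, limma adjusted p = 0.000776). A second probe set, just above the filter level, stood at 5.92, 5.66, 5.90 and 5.83 in WT and at 5.65, 5.84 and 5.82 in KLF15-null hearts, with the groups overlapping and a difference of -0.06 (95% confidence interval -0.26 to 0.14). The third read 3.82 to 3.91 in WT and 3.85 to 3.88 in KLF15-null hearts, among the dimmest of the table. So for both receptors the rise was seen on the bright probe set only. The second Tgfbr2 probe set was tested and did not rise with the bright one. The gap between these 2 was 2.22 to 2.80 on the WT arrays and 3.30 to 3.69 on the KLF15-null arrays. That pair was described after its values were seen, and why the 2 disagree was not tested. The remaining probe sets of both receptors lay below the filter level.

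Neither tested SMAD gene passed the threshold. Smad2 read 6.72, 6.72, 6.91 and 6.76 in WT and 6.73, 6.23 and 6.56 in KLF15-null hearts. The groups overlapped and the difference of -0.27 was not past the threshold (SE 0.12, limma adjusted p = 0.0884); without the first KLF15-null array, whose value lay within the WT range, it was -0.38 and past the threshold (limma adjusted p = 0.0236). For Smad3, the transducer most tied to fibrotic gene expression, the brighter of the 2 probe sets had a mean of 5.71, just under the filter level. It read 5.59 to 5.71 in WT and 5.67, 5.92 and 5.69 in KLF15-null hearts, and the dimmer one 4.30 to 4.64 and 4.31 to 4.44. Tested without the filter they differed by 0.09 and -0.10 (limma adjusted p = 0.431 and 0.363), with overlap on both, at levels where the array may no longer resolve a change.

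Smad7 codes for the inhibitory SMAD that blocks the type I receptor. It read 7.39, 7.63, 7.55 and 7.63 in WT and 7.68, 7.92 and 7.81 in KLF15-null hearts. All 3 KLF15-null values lay above the WT values, and the difference of 0.26 was not past the threshold (SE 0.10, 95% confidence interval 0.03 to 0.49, limma adjusted p = 0.0620). It was past it after median centring, with array weights and without the first KLF15-null array (limma adjusted p = 0.0183, 0.0213 and 0.0335), so its side of the threshold depended on the processing while its sign did not.

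Ccn2, the matrix-associated growth factor gene, had the brightest probe set of all 18, at the 97.3th percentile of the table. It read 10.52, 10.19, 10.79 and 10.89 in WT and 12.52, 12.10 and 12.08 in KLF15-null hearts. The lowest KLF15-null array lay above the highest WT array by over 1 log2 unit. The rise was 3.11-fold (95% confidence interval 2.33 to 4.14; difference 1.64, SE 0.18, limma adjusted p = 7.52e-05), and 98.1% of all tested probe sets had a smaller signed difference. After quantile and after cyclic loess normalization, it was 1.26 and 1.32, still past the threshold.

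Ccn1, earlier called Cyr61, gave 2 answers. Its brighter probe set, of the kind marked _x_at because its probes may bind other transcripts as well, read 8.87, 8.40, 8.79 and 8.87 in WT and 10.31, 9.46 and 9.76 in KLF15-null hearts, and rose 2.16-fold (95% confidence interval 1.58 to 2.95; difference 1.11, SE 0.20, limma adjusted p = 0.00134). The dimmer one, whose suffix _a_at marks transcripts of a single gene, read 7.67, 7.16, 7.46 and 7.46 in WT and 8.24, 6.72 and 7.32 in KLF15-null hearts, so that the KLF15-null arrays lay on both sides of the WT range. Its difference was -0.01 with a 95% confidence interval of -0.67 to 0.65 (limma adjusted p = 0.979), which covers a fall to 0.628 and a rise to 1.57 times the WT level. On both probe sets the first KLF15-null array was the highest and the second the lowest. The gap between the 2 probe sets was 1.21 to 1.41 on the WT arrays and 2.08 to 2.74 on the KLF15-null arrays, a pair described after its values were seen. Which one follows the Ccn1 transcript was not tested.

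The 250 bases before the start of Ccn1 are shown because the element bound by TEAD factors is part of how CCN genes are known to be driven. The window is chr3:145649986-145650235 on the minus strand of GRCm38.p6, directly upstream of the gene, from RefSeq, and the capitals mark the same motifs as above.
Ccn1: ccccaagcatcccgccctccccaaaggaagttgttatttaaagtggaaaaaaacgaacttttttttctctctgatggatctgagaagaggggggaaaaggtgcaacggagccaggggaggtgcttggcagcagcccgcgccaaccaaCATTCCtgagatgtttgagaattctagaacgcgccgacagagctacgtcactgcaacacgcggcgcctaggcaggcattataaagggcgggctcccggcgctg
It holds 1 match to GGAATG, on the other strand and beginning 103 bases before the start, and no match to CACCC or CAGAC, which says only that these letters are not in this window. Of the other windows read, those of Tgfb1, Tgfb2, Tgfbr1, Tgfbr2 and Smad3 hold no GGAATG.

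**Figure D2:**
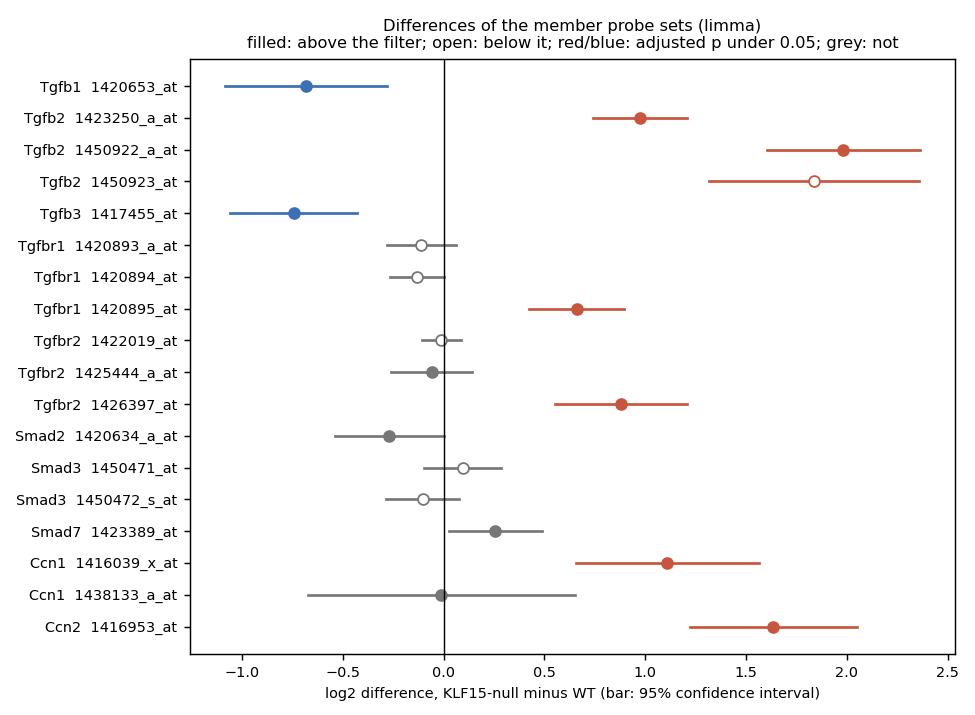
Log2 difference between KLF15-null and WT hearts for each of the 18 probe sets, with the 95% confidence interval of the limma fit as a bar. Filled points passed the filter and open points come from the fit without it. The Tgfb2 probe sets, between 0.98 and 1.98, lie to the right of zero and Tgfb1 (-0.68) and Tgfb3 (-0.74) to the left, while the interval of the dimmer Ccn1 probe set is the widest of the 18.

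Genes that lie around these 10 in the pathway were taken from 8 lists of 123 genes in all, of which 86 had a tested probe set, 23 were below the filter level and 14 had no probe set with a single symbol. A gene stands here on its brightest tested probe set. Of the 86, 33 were higher and 15 lower, against 27.4% and 19.6% of all 8404 genes tested. The lists were chosen with earlier results of these data known, so these counts are a description only. The median difference was 0.12, and 0.02 over all genes. Probe sets of a gene often disagreed in these data: of 34 list genes with several tested probe sets 10 had calls in both directions (29.4%), as had 21.0% of 2748 such genes in the whole table. None of the 3 member genes with several tested probe sets (Tgfb2, Tgfbr2 and Ccn1) had, but 3 genes are too few to set against these shares. For Tgfbr2 and Ccn1 the brighter tested probe set was called higher and the dimmer was not past the threshold. The call by 1 probe set of a list gene, or of a member such as Tgfb1, Tgfb3 or Ccn2, is to be read with that in view.

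Of 6 other ligands tested with limma, 0 were higher and 1 was lower, with a median difference of -0.15; at an unadjusted p under 0.05 the counts were 0 and 3. Bmp6, a bone morphogenetic protein gene, fell by 0.47 (limma adjusted p = 0.0405). That call ended when any single array but the third KLF15-null one was left out (adjusted p up to 0.0961) and after median centring (0.0864). Bmp4 stood at -0.18, the inhibin and activin subunit gene Inhbb at -0.25 and Inhba, of activin A, at -0.13, none past the threshold. A dimmer, untested probe set of Inhbb differed by 1.36 in the fit without the filter. Of 8 other receptors 1 was higher and 2 were lower, with a median of 0.03 that turned to -0.07 after quantile and -0.08 after cyclic loess normalization. Acvr1b, an activin type I receptor gene that also acts through SMAD2 and SMAD3, rose by 0.88 (limma adjusted p = 0.000108). Tgfbr3, the co-receptor betaglycan that presents TGF-β2 to the type II receptor, fell from 6.86 ± 0.15 (SD, n = 4) to 6.18 ± 0.20 (SD, n = 3), a difference of -0.68 (limma adjusted p = 0.00105). Acvr1 fell by 0.64 (limma adjusted p = 0.0245), and lost its call without WT array 2 or 3 or KLF15-null array 2 or 3 (adjusted p up to 0.0781). Eng, the endothelial co-receptor endoglin, stood at -0.52, not past the threshold, and its dimmer tested probe set rose by 0.93.

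Of 8 other SMADs and partners 3 were higher and 3 lower, with a median of -0.32. Smad1, a transducer of the bone morphogenetic protein branch, rose by 1.46 (limma adjusted p = 7.56e-06) on its brighter probe set and fell by 0.47 on the dimmer. Smad4, the common partner, rose by 0.76 on the brightest of its 3 probe sets, by 0.39 on another, and fell by 1.53 on the third, so no direction can be given for this gene. Smad6, the other inhibitory SMAD, has 1 probe set and fell from 7.04 ± 0.22 (SD, n = 4) to 6.34 ± 0.37 (SD, n = 3), a difference of -0.70 (limma adjusted p = 0.00802). Sp1, a zinc-finger factor that works with SMADs, fell by 0.63 on its brighter probe set, and its dimmer one, below the filter level, differed by 0.34 in the fit without the filter (limma adjusted p = 0.0153).

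Of 13 inhibitors and ubiquitin ligases 5 were higher and 3 lower, with a median of -0.05 that lay between 0.00 and 0.04 under the other scalings. Skil, which codes for the SMAD repressor SnoN and is itself a TGF-β target, rose by 1.21 and Pmepa1, another target that feeds back on SMADs, by 1.32 (limma adjusted p = 6.29e-05 and 7.66e-05). Each of the 2 has dimmer probe sets below the filter level that did not pass the threshold. Fstl1, a secreted follistatin-like protein gene, rose by 1.51 and by 1.15 on its 2 probe sets. Dcn, the small proteoglycan decorin that binds TGF-β, fell from 11.8 ± 0.32 (SD, n = 4) to 10.6 ± 0.042 (SD, n = 3).

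In the list of the latent complex and its activation 6 of 12 genes were higher and 3 lower (1 to 2 lower under the other scalings), with a median of 0.52. Furin, the protease that cuts the TGF-β precursor, rose by 1.68 (limma adjusted p = 1.45e-05), from 7.36 ± 0.088 (SD, n = 4) to 9.03 ± 0.30 (SD, n = 3). Itgav, the αv integrin chain that frees ligand from the latent complex, rose by 1.20 (limma adjusted p = 0.000103) on its brightest probe set, and its 2 others were below the filter level. Ltbp4, a latent TGF-β binding protein gene with 1 probe set, fell by 1.82 (limma adjusted p = 1.41e-05). Its relative Ltbp3 rose by 1.26 on one probe set and fell by 0.41 on another.

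Of 18 genes used as targets 9 were higher and 1 was lower, with a median of 0.45 (0.28 to 0.54 under the other scalings). The lower one was Id1 (-0.69, limma adjusted p = 0.0111). The other 8 were not past the threshold, among them the collagen genes Col1a1, Col1a2, Col3a1 and Col5a1. A dimmer tested probe set of Col1a1 was called higher, by 0.45. Named next are the genes with the smallest p, which all rose. Timp1, an inhibitor of matrix proteases, rose by 3.60 and is a gene that cytokines also raise. Tgfbi, a matrix protein gene named for its induction by TGF-β, rose on all 4 of its probe sets, by 2.74 on the brightest and by 1.35, 2.43 and 3.34 on the others. Klf10, a Krüppel-like factor and early TGF-β target, rose by 0.84 (limma adjusted p = 0.000503). Id2, which is usually a target of the bone morphogenetic protein branch, rose by 1.49 on its tested brightest probe set. That probe set has a WT mean of 5.53, under the filter level, and was tested only because it is bright in KLF15-null hearts. Another probe set, brighter in WT with a mean of 6.05, differed by -0.25, not past the threshold.

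In the list of the CCN family and YAP/TEAD genes 4 of 11 were higher and 2 lower, with a median of 0.31 (0.10 after cyclic loess normalization). Ccn4 rose from 5.58 ± 0.082 (SD, n = 4) to 6.40 ± 0.12 (SD, n = 3), where the WT mean lies under the filter level. Ccn3 stood at 0.35 and Ccn5 at 0.03, neither past the threshold. Srf, the serum response factor, rose by 1.26 on one probe set and stood at -0.30, not past the threshold, on the other. Ankrd1, a cardiac YAP target, rose by 0.76 with a second probe set of like brightness at -0.64, not past the threshold. Lats2, the kinase that restrains YAP, rose by 1.22 on its brightest probe set and fell by 0.72 and by 1.51 on 2 others. Of 10 kinases of the branch that does not use SMADs 5 were higher and 0 lower with limma on the brightest probe set, as at an unadjusted p under 0.05, with a median of 0.24. For each of Tab2, Rock1, Mapk14 and Mapk9, the 4 with the smallest p, at least 1 other tested probe set fell, for example Rock1 by 1.56 against a rise of 0.77, so this count gives no direction for the group. The call of Mapk9 ended without WT array 2 or 4 or KLF15-null array 3 (adjusted p up to 0.0830).

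**Figure D3:**
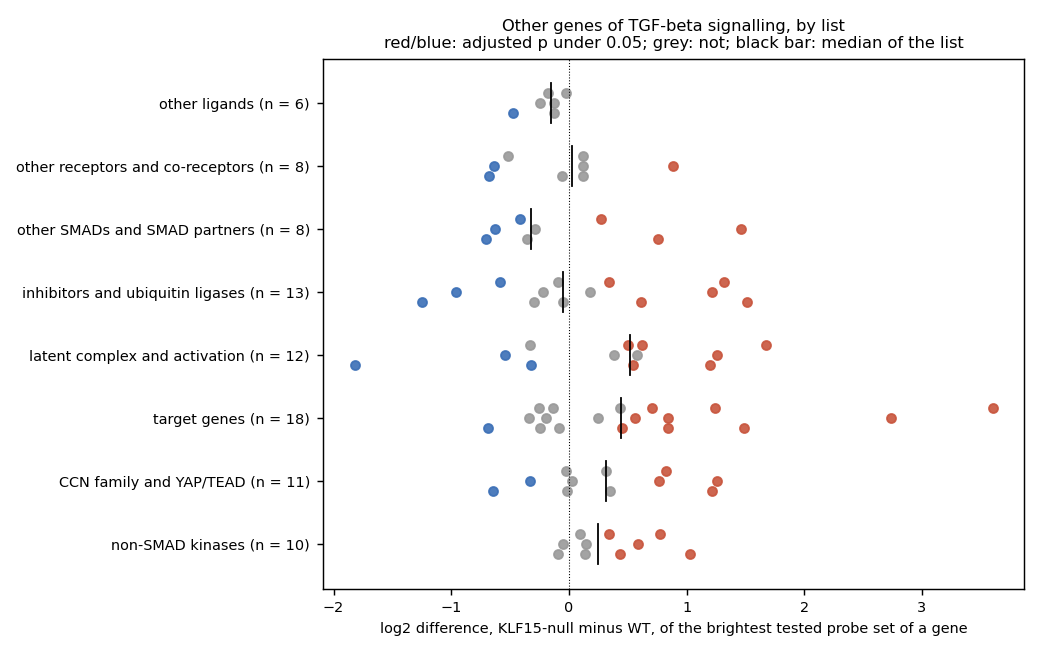
Log2 difference of each of the 86 tested genes around the members, by list, on the brightest tested probe set of the gene, with the median of the list as a black bar. Points to the right of the dotted zero line are higher in KLF15-null hearts; the target genes Timp1 (3.60) and Tgfbi (2.74) lie farthest right and Ltbp4 (-1.82) farthest left.

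The genes whose pattern over the 7 arrays was most like that of Ccn2 were found as the smallest root mean square distance between deviations from each gene's own mean, over 8403 other genes. They were Cd14 (distance 0.13 on the log2 scale), a receptor for bacterial lipid of myeloid cells, Slc39a6 (0.17), a zinc transporter gene, Ier5 (0.20), an immediate early gene, Tyrobp (0.20), a myeloid adaptor gene, and Spcs3 (0.21), of the signal peptidase. Cd14 went from 6.40 ± 0.26 (SD, n = 4) to 8.04 ± 0.30 (SD, n = 3). Among the members, each on its brightest tested probe set, Ccn1 came nearest to Ccn2, at rank 89 with a distance of 0.31. Tgfb2 followed at rank 334 and Tgfbr2 at rank 500. For Ccn1 this is the _x_at probe set, and the dimmer one, with a difference of -0.01, was not ranked. With 7 arrays in 2 genotypes such a distance mostly reflects the step between genotypes.

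Whole hearts mix cell types, and in such bulk samples fewer cells of a type and less RNA per cell cannot be told apart. Each marker list is given with its summed signal on the linear scale. With limma 0 of 7 cardiomyocyte markers were called on their brightest tested probe set, and 2 were higher at an unadjusted p under 0.05. The sums were 84821 to 96835 in WT and 88756 to 95850 in KLF15-null hearts. After cyclic loess normalization 6 of the 7 were lower, after quantile normalization 2 were lower, and after median centring 3 were higher. Myh6 and Pln each had 1 other tested probe set that was called lower. Of 7 fibroblast markers 2 were higher (Pdgfra and Gsn) and 2 lower (Dcn and Lum), with sums of 8126 to 14622 and 10292 to 11578. Under the other scalings 2 were lower as well, with 1 higher after quantile and 0 after cyclic loess normalization. Col1a1, not past the threshold, had 1 other tested probe set that was called higher. Of 6 endothelial markers 3 were lower (Pecam1, Emcn and Tie1) and 0 higher with limma or at an unadjusted p under 0.05, with sums of 1825 to 2307 and 1159 to 1827. Cdh5 (-0.14), Tek (0.02) and Kdr (0.46) were not past the threshold. After median centring 1 endothelial marker was called higher and 3 lower. Of 6 smooth muscle and pericyte markers 1 was higher (Pdgfrb, whose other tested probe set was called lower) and 1 lower (Myh11), with sums of 6509 to 9641 and 10232 to 11601. Rgs5, not past the threshold, had 3 other tested probe sets that were called lower. Of 6 tested macrophage markers 2 were higher (Csf1r and Lyz2) and 2 lower (C1qa and C1qb, although the other 2 tested probe sets of C1qb were called higher), with sums of 2383 to 4080 and 3864 to 5507, and Itgam and Fcgr1 were below the filter level. Of 4 tested platelet markers Pf4 and Ppbp were higher, with sums of 584 to 719 and 1041 to 1362. Of 5 tested neutrophil markers S100a8 and S100a9 were higher, with sums of 285 to 423 and 643 to 789, and Csf3r, Cxcr2 and Mmp8 were not past the threshold. Of 3 tested T and B cell markers Ptprc, which all leukocytes carry, was higher, with sums of 297 to 346 and 446 to 620, and Cd3d was below the filter level. No marker can be read as absent, since the table has no detection calls. The part of these cell types in the changes of the ligands, receptors and CCN genes was not tested.

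**Figure D4:**
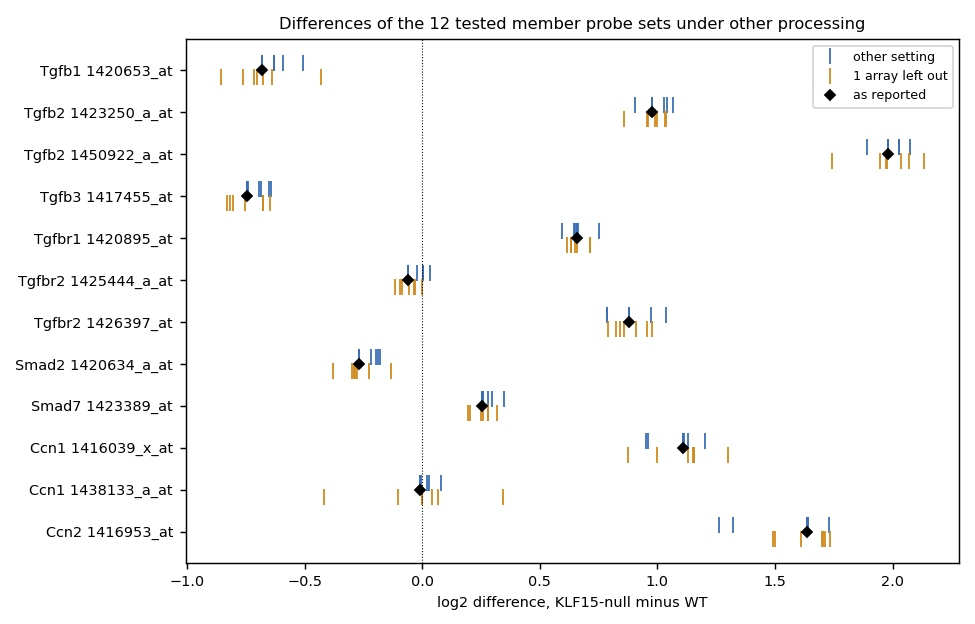
Log2 difference of the 12 tested member probe sets as reported (black diamonds), under the other settings of filter, scaling and model (blue ticks) and with 1 array left out (orange ticks). The 8 called probe sets stay on their side of zero, the Tgfb1 ticks reaching from -0.86 to -0.43, and the ticks of the dimmer Ccn1 probe set straddle zero from -0.42 to 0.34.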

How the data were processed

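Per the labels' protocols, RNA from frozen tissue was amplified from the 3′ end and labelled with biotin. The deposited numbers are on a log2 scale, as judged from their range. GCOS is named in the submitters' processing notes. No source used here gives the summarization, scaling or filtering. Values were used as deposited, since array medians lay within 0.15 log2, although the medians did not overlap between the genotypes. Of 22626 probe sets 20380 had 1 symbol, 691 several and 1555 none; 20351 of the first matched RefSeq of GRCm38.p6 by Entrez number.

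The genotypes were set against each other in limma 3.58.1 under R 4.3.3 (linear model, empirical Bayes with intensity trend, two-sided, Benjamini-Hochberg over all 13576 tested probe sets, threshold 0.05), after testing on simulated data. Probe sets under the filter are given from the same fit without it. Named were all member probe sets, Klf15, the 4 genes with the smallest p per list, further Ccn genes, Tgfbr3, Smad4 and Smad6, the 5 genes nearest to Ccn2, and cell type markers. Id1 and the collagen genes of the target list were named after their values had been seen. The members and lists were chosen with earlier results of these data known. Replicate numbers were not taken to pair the arrays. Deviations of same-numbered arrays correlated at -0.11, 0.0012 and 0.19, too few values to settle whether the arrays were paired. The number of arrays limits the precision.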

Additional observations from a re-analysis of the deposited data

Results flagged for a closer look

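Among 19 groups of 4 WT arrays examined (the 18 probe sets and Klf15), 1 had an array set apart from the rest by Dixon's test, where chance gives about 5% of groups. It was the dimmest Tgfbr1 probe set, with 4.02 on the fourth WT array and 3.92 on the next highest, at a level below the filter. The groups of 3 KLF15-null arrays are too small for that test. Among the 12 tested member probe sets the second KLF15-null array was the lowest of its group on 8 and the first the highest on 9. Over all tested probe sets the second was the lowest on 44.9%. How often the first was the highest over all tested probe sets was not counted, so the 9 cannot be judged.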

How the results depend on the processing

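The 8 called member probe sets kept their direction and stayed past the threshold under every alternative that could be run: no filter, quantile, cyclic loess or median scaling, no intensity trend, array weights, the replicate block and each array left out. The filter at the 60th percentile removed Tgfb1 and both tested Tgfb2 probe sets, among others, so 1 member probe set was lower there in place of 2. Of the 4 tested member probe sets not past the threshold, those of Smad2 and Smad7 kept their sign. The difference of the dimmer Ccn1 probe set was -0.01 as reported, 0.019 after quantile and 0.028 after cyclic loess normalization and 0.081 after median centring, and ran from -0.42 to 0.34 with 1 array left out. The difference of the dimmer tested Tgfbr2 probe set was -0.06, against 0.0017, 0.032 and 0.0015 after quantile normalization, median centring and with array weights. The cause was not tested. Probe sets called numbered 6872, and 5167 to 8800 over the alternatives; higher calls made up 52.9% of them, and 63.3% after median centring. With the replicate block 6981 probe sets were called, and of the members 6 higher and 2 lower as without it; the block changed no member's call.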
